A study of Homo sapiens with 6 samples.

Results

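H3T11ph regions that were wide and were listed only after PKM2 knockdown were examined in MDA-MB-231 cells. A region was taken when it stood in the H3T11ph PKM2-KD list on chromosomes 1 to 22, had a width of 2 or more times that of the narrowest H3T11ph NC region (111 bp), and overlapped no region of the H3T11ph NC list. This left 1087 regions of the 35720 in the PKM2-KD list. They were 58.1% of the 1870 PKM2-KD regions of that width, and over PKM2-KD regions of every width 93% overlapped no NC region. Because they were chosen by H3T11ph peak calls and width, the number, width, fold and height of these gained wide regions are given as descriptions.

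MDA-MB-231 is a human triple-negative breast cancer cell line. The labels give NC cells the genotype WT, and the others the genotype PKM2 knockdown or NONO knockdown, without naming the reagent used for these libraries. H3T11ph and H3K27ac were profiled in NC and PKM2-KD cells, and NONO in NC and NONO-KD cells. Each of the 6 groups held 1 library, so no test between conditions was possible. Shares are given with 95% Wilson intervals and differences between shares with 95% Newcombe intervals, both of which cover counting error only.

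CUT&Tag places the transposase Tn5 at an antibody bound to chromatin, so that DNA next to the antigen is cut out and sequenced. H3T11ph is histone H3 phosphorylated at threonine 11, a mark that several kinases can write and that has been attributed in cancer cells to nuclear PKM2, an isoform of pyruvate kinase. H3K27ac is an acetylated lysine of the same histone tail and is found at active promoters and enhancers. NONO is an RNA- and DNA-binding protein of nuclear paraspeckles with roles in transcription and splicing.

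On chromosomes 1 to 22 the lists held between 35720 and 556239 regions, and 41692 of them were in H3T11ph NC. The NONO NC and H3K27ac NC lists were called in another form than the other 4, with 94.6% and 79.3% of their regions at exactly the narrowest width of the list. NC and knockdown therefore cannot be told apart from peak calling for NONO and H3K27ac, whereas both H3T11ph lists had 1 form. Their narrowest widths differed, at 111 bp in NC and 91 bp in PKM2-KD, so that the width limit was 2 times the narrowest width of one list and 2.44 times that of the other. Of the mesenchymal markers VIM, ZEB1, FN1, CD44, CAV1 and AXL, 6 of 6 had an H3K27ac region within 1 kb of a gene end in NC and in PKM2-KD. Of 8 luminal or epithelial markers 6 did in each list, so the H3K27ac lists did not separate these cell types.

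Promoters of 5 genes are shown because a gained wide region had its summit inside the bases just upstream of the start of transcription there. The first 4 belonged to the regions of highest fold at genes and the last to a region on chromatin listed as acetylated only in PKM2-KD. Each line gives the 250 bases before the start, 5′ to 3′ on the strand of the gene, from RefSeq (GRCh38.p14), and the 21 capitals mark the summit of the H3T11ph region with 10 bases on each side. The windows lie at chr5:123423404-123423653 on the minus strand for CEP120, chr4:85474900-85475149 on the plus strand for ARHGAP24, chr7:6447955-6448204 on the minus strand for DAGLB, chr3:193592958-193593207 on the plus strand for OPA1 and chr16:30355309-30355558 on the minus strand for CD2BP2.
CEP120: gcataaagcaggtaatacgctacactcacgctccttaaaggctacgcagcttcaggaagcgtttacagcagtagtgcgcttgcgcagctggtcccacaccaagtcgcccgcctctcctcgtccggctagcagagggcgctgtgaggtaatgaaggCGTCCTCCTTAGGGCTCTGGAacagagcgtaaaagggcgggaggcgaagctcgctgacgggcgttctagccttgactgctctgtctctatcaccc
ARHGAP24: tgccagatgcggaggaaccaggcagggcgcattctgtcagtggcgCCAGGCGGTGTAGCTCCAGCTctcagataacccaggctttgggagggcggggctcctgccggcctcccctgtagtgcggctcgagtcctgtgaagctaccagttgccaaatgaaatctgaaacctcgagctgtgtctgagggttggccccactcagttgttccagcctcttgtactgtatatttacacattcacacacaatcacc
DAGLB: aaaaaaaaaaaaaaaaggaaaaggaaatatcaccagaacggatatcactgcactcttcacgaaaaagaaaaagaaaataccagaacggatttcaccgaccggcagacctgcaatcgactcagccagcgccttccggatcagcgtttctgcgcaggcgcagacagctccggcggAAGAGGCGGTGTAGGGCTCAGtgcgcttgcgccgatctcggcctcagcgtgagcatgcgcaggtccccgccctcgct
OPA1: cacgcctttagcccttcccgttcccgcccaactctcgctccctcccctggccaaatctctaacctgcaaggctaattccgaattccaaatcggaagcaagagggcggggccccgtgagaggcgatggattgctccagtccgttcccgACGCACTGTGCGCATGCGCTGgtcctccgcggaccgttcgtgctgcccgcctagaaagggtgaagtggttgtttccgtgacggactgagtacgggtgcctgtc
CD2BP2: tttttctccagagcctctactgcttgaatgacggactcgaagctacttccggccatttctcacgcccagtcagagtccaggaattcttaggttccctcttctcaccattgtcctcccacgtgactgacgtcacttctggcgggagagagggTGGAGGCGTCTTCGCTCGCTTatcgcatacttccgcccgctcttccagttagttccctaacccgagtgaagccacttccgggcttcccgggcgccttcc
The summits stood 85 bases upstream of the start at CEP120, 195 at ARHGAP24, 67 at DAGLB, 93 at OPA1 and 89 at CD2BP2. The 5 windows held between 54.4% and 61.6% G and C, and between 9 and 22 CpG pairs. Each of the 5 held a GC box (GGGCGG on either strand), and none held CCAAT, the AP-1 motif TGANTCA or the TATA motif TATAAA on either strand.

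The gained wide regions were mostly short peaks just above the width limit. Their median width was 267 bp, with quartiles of 241 and 316 bp and a highest width of 2133 bp. The fold, which divides the height of the summit by the local background of its own library, had a median of 19.8 and ran from 1.05 to 158. The height of a region, meaning the number of fragments stacked at its summit, could be recovered from the deposited values for 1080 of the 1087 and had a median of 52 fragments, with quartiles of 30 and 80. The 783 kept wide regions, which were as wide and did overlap an NC region, were wider (median 310 bp) and taller (67.5 fragments), with a lower fold (10.2). At the limit itself, the 87 regions at it or less than 5 bp above had a median fold of 23.3 and a median height of 53, and the 85 within 5 bp below it had 21.2 and 49.

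**Figure D1:**
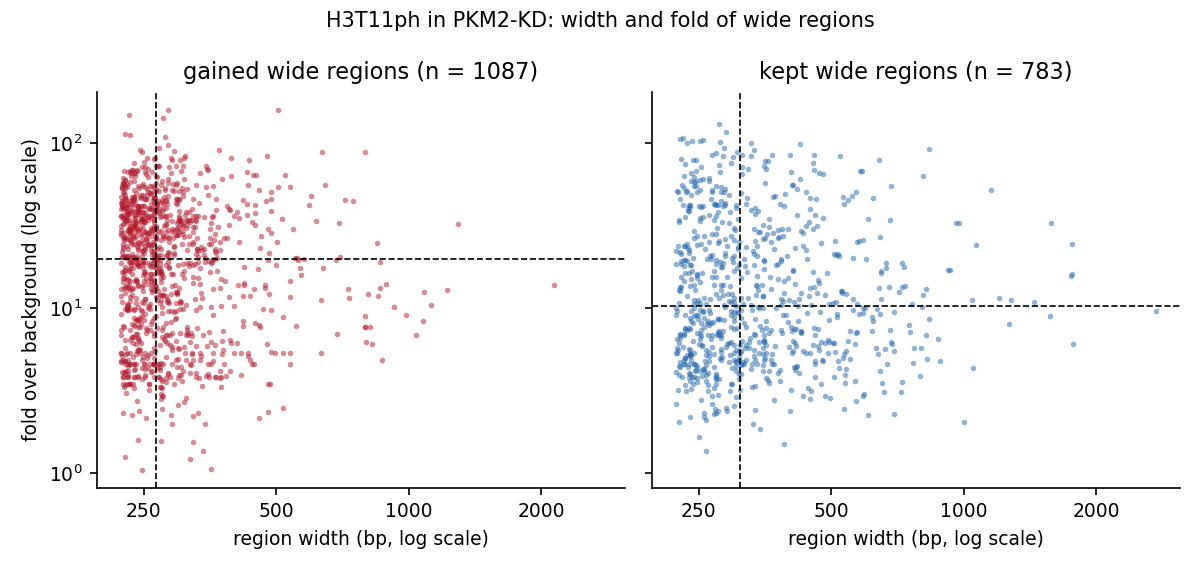
Width in bp (x axis, log scale) against fold over background (y axis, log scale) of H3T11ph PKM2-KD regions, 1 point per region, with gained wide regions on the left and kept wide regions on the right. Dashed lines mark the medians, 267 bp and a fold of 19.8 on the left, 310 bp and 10.2 on the right. Most gained regions lie near the width limit over a broad range of folds.

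Narrow regions listed only in PKM2-KD had a median height of 33 fragments, below the 52 of the gained wide ones. Among the gained wide regions, however, the widest were the lowest. The 373 gained regions under 250 bp had a median height of 50 fragments and 12.9% of them were below 20 fragments. Of the 37 regions of 600 bp or more, 56.8% were below 20 fragments and the median was 17. The 10 widest regions ran from 885 to 2133 bp, and 7 of them were below 20 fragments. The widest was chr13:113067245-113069377 in the body of MCF2L, with a height of 17 fragments and a fold of 13.7. The second widest was of another kind, an intergenic region of 1293 bp at chr6:44058381-44059673 with 117 fragments and a fold of 32.5.

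The 7 regions whose height was not recovered had folds of 1.05 to 1.59 beside −log10 q values of 27.02 to 2284, and heights up to 2999 fragments had been tried. Of these, 4 lay together in the body of PCBD2 on chromosome 5, the first at chr5:134923385-134923658 and the last at chr5:134928044-134928269. Of the rest, 1 lay in the body of LOC102724250 and 1 at chr11:10509187-10509526 outside protein-coding genes. None of the 7 overlapped an H3K27ac PKM2-KD or NONO NC region. The source of their signal was not tested.

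Absence from the NC list did not always mean empty NC chromatin. An NC region lay within 500 bp of 126 gained regions (11.6%) and within 100 bp of 46 (4.23%), and the smallest gap was 2 bp. Over all 1087 the median gap to the nearest NC region was 12544 bp. For the 46 with an NC region within 100 bp, the median height was 64.5 fragments in PKM2-KD and 49.5 for the NC neighbour, and the PKM2-KD region was the taller in 26 of 46. Heights of NC and PKM2-KD, here and below, are counts of separate libraries not scaled for depth. They do not compare the amount of signal between conditions. PKM, the gene of the knocked-down kinase, held such a case. Its gained region at chr15:72226653-72226937, 4293 bases downstream of the nearest annotated PKM start, had a fold of 19.9 and 78 fragments. An NC region of 246 bp with a fold of 4.997 and 32 fragments began 4 bp away.

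H3K27ac was found at more of the gained wide regions than of the narrow ones. An H3K27ac region of NC overlapped 645 of the 1087 (59.3%, 56.4 to 62.2) and one of PKM2-KD overlapped 732 (67.3%, 64.5 to 70.1). The NC share was 49.4% with only regions of −log10 q of at least 5 in both lists and 47.7% when at least 50% of the region had to be covered. Among the 32119 narrow H3T11ph regions that were also listed only in PKM2-KD, the shares were 19.0% and 19.2%. The difference was 40.4 points (37.4 to 43.3) for H3K27ac of NC and 48.1 points (45.2 to 50.9) for H3K27ac of PKM2-KD. Wide regions can overlap more by their width alone. Counted at the summit base only, the shares of gained wide regions were 50.2% and 59.3%, and the differences from narrow ones 35.7 points (32.7 to 38.7) and 42.7 points (39.7 to 45.6).

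Against kept wide regions the shares were lower. The difference was −4.26 points (−8.69 to 0.215) for H3K27ac of NC, with an interval that includes 0, and −10.3 points (−14.3 to −6.22) for H3K27ac of PKM2-KD. With regions of 20 fragments or more only, the difference for H3K27ac of NC was −5.46 points (−10.2 to −0.643), an interval that excludes 0. The 1731 narrow regions shared with NC resembled the gained wide ones in H3K27ac, with 59.2% and 68.8% and differences of 0.123 points (−3.61 to 3.83) and −1.46 points (−5.02 to 2.05). The 2951 wide NC regions that overlapped no PKM2-KD region had 37.3% and 46.8%, which was 21.99 points (18.6 to 25.4) and 20.5 points (17.2 to 23.8) below the gained wide regions.

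**Figure D2:**
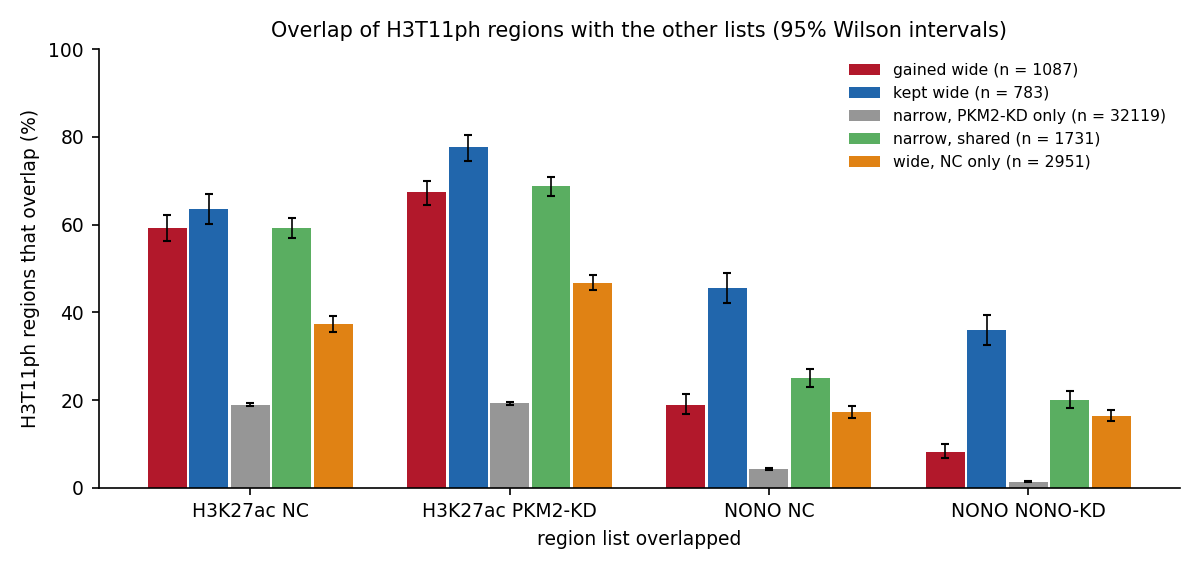
Share of H3T11ph regions (y axis, percent) that overlap a region of each of the 4 other lists (x axis) for 5 classes of H3T11ph regions. Bars are shares and error bars 95% Wilson intervals. Gained wide regions stand far above narrow PKM2-KD-only regions for H3K27ac and below kept wide regions for NONO.

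The acetylated regions under the gained wide regions were large. In PKM2-KD they had a median width of 975.5 bp, and 49.0% were at least 1000 bp wide, against a median of 182 bp and 4.23% over all 208488 H3K27ac PKM2-KD regions. Their median fold was 12.9 against 5.56 over the list. The H3T11ph summit lay within 200 bp of the H3K27ac summit in 64.9% of the 732 cases. For kept wide regions this was 57.4% and for narrow PKM2-KD-only ones 69.0%. Large H3K27ac regions were not particular to the gained ones. In PKM2-KD the median width was 1046.5 bp under kept wide regions and 639 bp under narrow PKM2-KD-only ones. Of these, 52.1% and 34.5% were at least 1000 bp wide. Larger regions are also overlapped more easily, and the widest was taken where several overlapped.

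Acetylation was present in both conditions at 595 gained regions (54.7%, 51.8 to 57.7) and in neither at 305 (28.1%, 25.5 to 30.8). It was listed in PKM2-KD only at 137 (12.6%, 10.8 to 14.7), where 7.33% of all H3T11ph PKM2-KD regions had this pattern, and in NC only at 50 (4.60%, 3.51 to 6.01), where 6.07% did. Kept wide regions had 16.9% (14.4 to 19.6) in PKM2-KD only, so the excess was not particular to the gained ones. At the 595 with both, the H3K27ac fold was higher in PKM2-KD at 440 (73.9%), with a median log2 ratio of 0.63. Over H3K27ac PKM2-KD regions of 500 bp or wider with an NC partner, 78.6% were higher and the median log2 ratio was 0.68. A larger H3K27ac fold in PKM2-KD was thus the rule across wide H3K27ac regions, and the forms of the 2 lists differed.

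NONO was less often found. A NONO region of NC overlapped 206 gained wide regions (19.0%, 16.7 to 21.4) and one of NONO-KD 89 (8.19%, 6.70 to 9.97). These shares were above those of narrow PKM2-KD-only regions, 4.29% and 1.44%, by 14.7 points (12.4 to 17.1) and 6.75 points (5.25 to 8.53). They were far below those of kept wide regions, 45.6% and 35.9%, by 26.6 and 27.7 points, with differences of −26.6 (−30.8 to −22.4) and −27.7 (−31.4 to −24.0). The NONO pattern listed in NC and not in NONO-KD held at 178 gained regions (16.4%, 14.3 to 18.7), where 5.44% of all H3T11ph PKM2-KD regions had it, and kept wide regions had 22.7% (19.9 to 25.8). NONO of both conditions was at 28 gained regions (2.58%) and at 179 kept ones (22.9%). Counting all 4 other lists, 249 gained regions (22.9%, 20.5 to 25.5) lay in none, 491 (45.2%) in 2 and 13 (1.196%) in all 4. Of kept wide regions, 5.36% (3.99 to 7.17) lay in none and 11.5% in all 4.

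The share with acetylation varied with height but did not rise throughout. Among gained regions under 10 fragments, 54.4% (45.7 to 62.9) overlapped H3K27ac of PKM2-KD. From 80 to 160 fragments 81.2% (75.7 to 85.6) did, beside 81.6% of kept wide regions and 60.4% (57.3 to 63.5) of narrow PKM2-KD-only regions of the same height. In the tallest band, 160 fragments or more, the share was 69.7% (52.7 to 82.6) of 33 gained regions and 65.9% (55.1 to 75.2) of kept wide ones, and the interval for the gained ones meets that of the band below. At 40 to 80 fragments, the band with most gained regions (442), the shares were 66.3% (61.8 to 70.5) for gained, 81.2% (75.7 to 85.8) for kept and 23.9% (23.1 to 24.7) for narrow ones. NONO of NC was at 16.3% of gained and 41.9% of kept regions in this band. With regions of 20 fragments or more only, the difference from kept wide regions was −9.31 points (−13.6 to −4.88) for H3K27ac of PKM2-KD and −28.7 points (−33.3 to −24.0) for NONO of NC, and from narrow ones 48.6 (45.5 to 51.6) and 14.9 points (12.5 to 17.7).

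**Figure D3:**
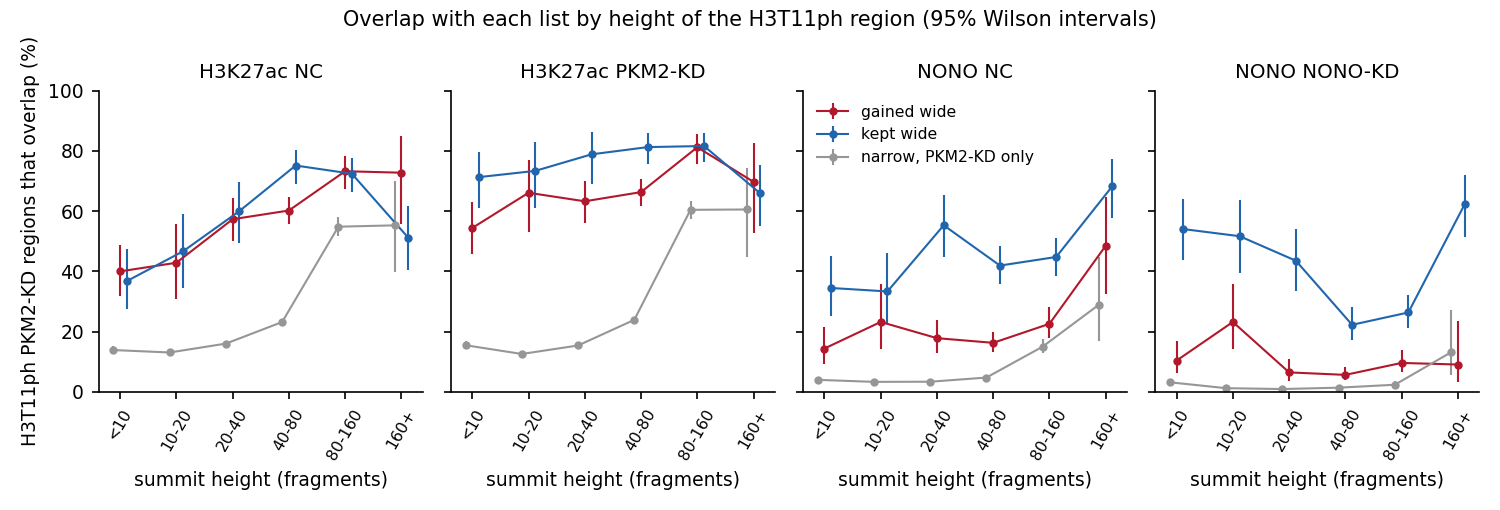
Share of H3T11ph PKM2-KD regions (y axis, percent) that overlap each other list, by height of the H3T11ph region in fragments (x axis, 6 bands), for gained wide, kept wide and narrow PKM2-KD-only regions. Points are shares and bars 95% Wilson intervals. At 40 to 80 fragments gained regions lie at 66.3% for H3K27ac PKM2-KD, between narrow (23.9%) and kept ones (81.2%).

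The 124 gained regions with a fold of 50 or more had the most acetylation in NC, at 82.3%, and the fewest near chromosome ends, with 2.42% in the outer 2 Mb. Of the 154 with a fold under 5, 41.6% had H3K27ac in NC and 13.0% were in the outer 2 Mb. The 10 highest folds ran from 90.8 to 158, and 10 of 10 overlapped H3K27ac in both conditions, with the higher H3K27ac fold in PKM2-KD at 9. A NONO NC region was at 1 of them and a NONO-KD region at 0. Only 1 of the 10 was at a gene end. The highest was intergenic on chromosome 7, at chr7:22572993-22573276, with a fold of 158 and 206 fragments over H3K27ac regions of fold 31.5 in NC and 75.6 in PKM2-KD. The next lay in the body of PTPRE, a receptor-type tyrosine phosphatase gene, at chr10:128064353-128064855, with a fold of 157 over H3K27ac of fold 18.5 in NC and 83.5 in PKM2-KD. Others lay in the bodies of GABRR2, PTPN14, PRKCH, ARHGAP18 and TNFRSF10D.

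At genes, the gained wide region of highest fold was at CEP120, which encodes a centrosomal protein needed for centriole assembly. It lay at chr5:123423346-123423621 with a fold of 141 and 263 fragments, and the nearest H3T11ph NC region was 37499 bp away. H3K27ac overlapped it with a fold of 18.2 in NC and 9.71 in PKM2-KD, and no NONO region did. This was the 1 region of the 10 highest at genes whose H3K27ac fold was lower in PKM2-KD.

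ARHGAP24, which encodes a GTPase-activating protein, was both the second highest and the second widest of the regions at genes. Its region at chr4:85474818-85475453 was 636 bp wide with a fold of 87.7 and 114 fragments. H3K27ac had a fold of 13.4 in NC and 24.4 in PKM2-KD, NONO had 66.3 in NC, and NONO-KD had no region there. NONO in NC and not in NONO-KD was also found at ATF6B, FBXO22 and CHD8, so 4 of these 10 regions carried it. Of all gained regions 16.4% did. NONO did not mark high folds in general. A NONO NC region was at 12.9% of the gained regions with a fold of 50 or more, against 19.0% of all gained ones.

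SLC7A5, a transporter of large neutral amino acids, had a fold of 80.7 at chr16:87870375-87870683, with H3K27ac of 18.5 in NC and 27.1 in PKM2-KD. SLC38A10, a further amino acid transporter gene, had 69.4 at chr17:81294787-81295042, with H3K27ac of 6.50 and 15.2. ATF6B, a transcription factor of the endoplasmic reticulum stress response, had 68.8 at chr6:32114036-32114385 on the strongest acetylation of the 10, with folds of 29.0 in NC and 87.7 in PKM2-KD.

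OPA1, a GTPase of mitochondrial inner membrane fusion, and ATP13A4 each had an end within 1 kb of 1 gained region, at chr3:193592962-193593199 with a fold of 66.0, with H3K27ac of 7.54 in NC and 23.5 in PKM2-KD. CHD8, a chromatin remodeller, had 56.7 at chr14:21456256-21456484 over weak acetylation of fold 5.38 and 6.96. The remaining genes of the 10 were DAGLB (a diacylglycerol lipase, fold 80.9), USP53 (78.3) and FBXO22 (67.6), a substrate receptor of a ubiquitin ligase. No NONO-KD region was at any of the 10.

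The widest regions at genes were 467 to 794 bp wide, and their folds ran from 2.35 to 87.7. WDR81 led at chr17:1739005-1739798 with 794 bp but a height of only 15 fragments. It was 299 bp from an NC region of 14 fragments, lay 1.68 Mb from the chromosome end, and had H3K27ac of fold 6.04 in PKM2-KD and no H3K27ac region in NC. EXOC3L4, TINAGL1 and DIPK2A each had a gained region of 473 to 594 bp with folds of 41.8, 50.03 and 44.2, and H3K27ac regions there were 1966 to 2617 bp wide in PKM2-KD against 212 to 523 bp in NC. Further ones were at CLIC1 with DDAH2, at FBRS, at AFG3L2 (a mitochondrial protease gene) and at TPT1.

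Where H3K27ac was listed in PKM2-KD and not in NC, the gained regions of highest fold at genes ran from 15.1 to 45.0. F13A1, the A chain of coagulation factor XIII, had 45.0 and 58 fragments at chr6:6320860-6321121, over an H3K27ac region of fold 11.9 and 1226 bp in PKM2-KD. NONO was there in both NC (fold 49.5) and NONO-KD (45.5). One region of fold 41.1 lay at both IER3 and FLOT1, and one of 39.2 at PWWP2A. NOLC1, USP36 and CD2BP2, whose products act in the nucleolus or the spliceosome, had folds of 29.4, 16.5 and 16.4 over H3K27ac regions of fold 15.3, 10.2 and 10.3 in PKM2-KD, each between 1736 and 2237 bp wide. At NOLC1 an NC region of H3T11ph with 22 fragments lay 58 bp from the gained one with 72, and at CD2BP2 one of 18 fragments lay 312 bp from the gained one with 43. SSBP2, CYSRT1, GNB2 and INPP5F completed the 10, and GNB2, a G protein subunit gene, had a NONO NC region of fold 14.5.

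**Figure D4:**
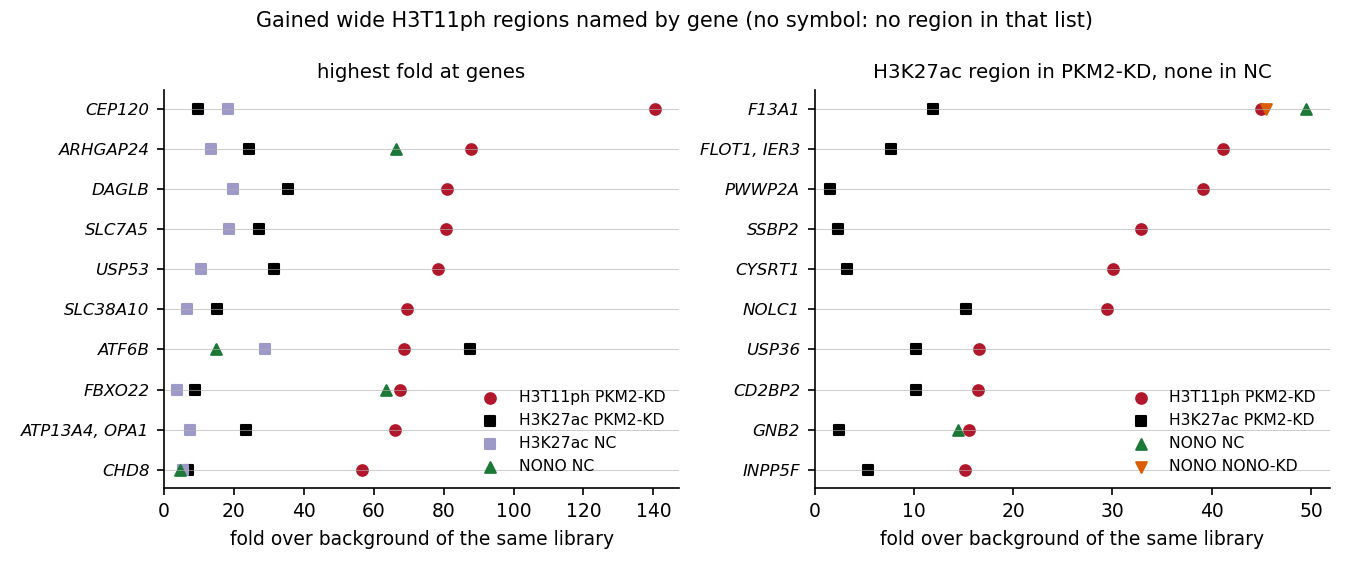
Fold over the background of the same library (x axis) at the 10 gained wide regions of highest fold at genes (left) and the 10 of highest fold at genes with H3K27ac in PKM2-KD and not in NC (right), 1 row per region. Symbols give the H3T11ph, H3K27ac and NONO lists, and a missing symbol means no region. CEP120 leads on the left with 141 and F13A1 on the right with 45.0.

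Within 1 kb of an end of a protein-coding gene lay 212 gained wide regions (19.5%, 17.3 to 21.96), a further 422 (38.8%, 36.0 to 41.8) lay inside genes, and 453 (41.7%, 38.8 to 44.6) were intergenic. The share at gene ends was 11.96 points (9.70 to 14.4) above that of narrow PKM2-KD-only regions (7.54%). It differed from that of kept wide regions (20.8%) by −1.31 points (−5.05 to 2.34), an interval that includes 0. H3K27ac of PKM2-KD was at 74.1% of the gained regions at gene ends, 69.4% of those inside genes and 62.3% of intergenic ones. The regions at gene ends were the tallest, with a median of 64 fragments against 52.5 inside genes and 45 between them. The 212 regions touched 257 of 19126 protein-coding genes, 1.34%, and 0 genes had 2 or more within 1 kb of their ends. Counting gene bodies, PCBD2 held 4 regions, and AHNAK2, CAMK1D and PTPRN2 held 3 each, genes chosen after their counts were seen. Of the other gene classes, a lncRNA end was within 1 kb of 10.2% of gained, 10.9% of kept wide and 4.64% of narrow PKM2-KD-only regions. A tRNA gene was within 1 kb of 4 gained (0.368%) and 23 kept wide regions (2.94%). Of narrow PKM2-KD-only regions 0.193% had a tRNA gene that near.

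Strand and start sites were known from promoter windows for 15101 protein-coding genes, chromosome 8 not included. Of the 1037 gained regions on the other chromosomes, 176 (17.0%) had their summit within 1 kb of a start. The median position was −117 bp, and 126 of the 176 (71.6%) lay upstream. Of the 176, 93 (52.8%, 45.5 to 60.1) were 1 to 300 bp upstream and 24 (13.6%) 0 to 299 bp downstream. H3K27ac PKM2-KD summits were about as frequent on either side of the start, with 25.3% (24.5 to 26.03) upstream and 24.5% downstream in the same windows. Kept wide regions had 64.1% (55.6 to 71.8) upstream, with an interval that meets that of the gained ones, and narrow PKM2-KD-only regions 42.1% (39.8 to 44.4).

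**Figure D5:**
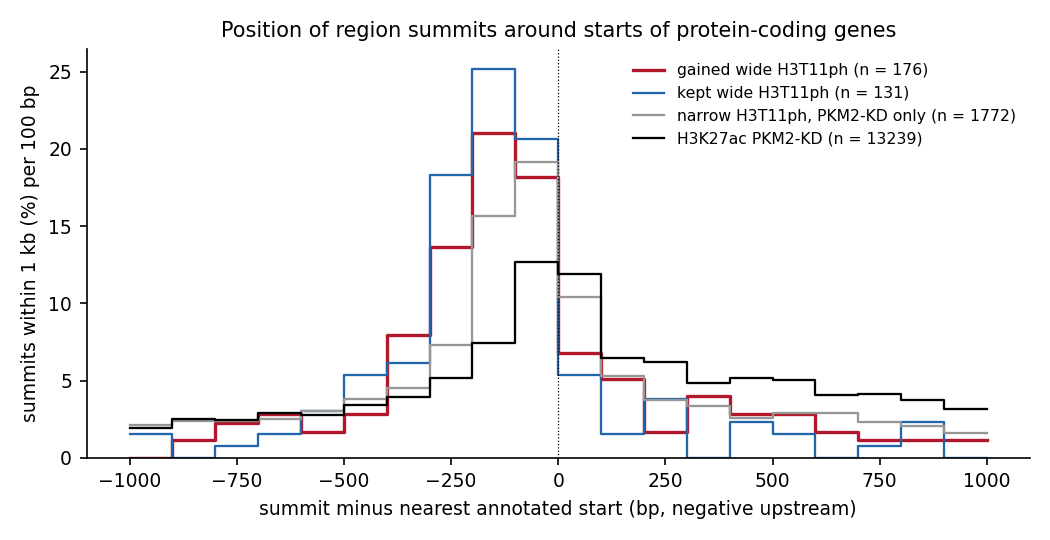
Distance of the region summit from the nearest annotated start of a protein-coding gene (x axis, bp, negative upstream) against the percent of the summits within 1 kb that fall in each 100 bp (y axis), for gained wide, kept wide and narrow PKM2-KD-only H3T11ph regions and H3K27ac PKM2-KD regions. The gained regions peak at 21.0% between 200 and 100 bp upstream, and H3K27ac at 12.7% in the last 100 bp upstream.

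Promoter windows of 300 bases (250 before and 50 after a start, RefSeq) were compared for their letters, and 156 of 21041 overlapped a gained wide region. A GC box (GGGCGG, either strand) was in 80.1% (73.2 to 85.6) of them, against 56.6% of all windows and 68.5% (67.6 to 69.5) of windows over an H3K27ac PKM2-KD region. CCAAT (either strand) was in 48.7% (41.0 to 56.5), against 34.4% and 35.4%. Windows over narrow PKM2-KD-only regions had 74.7% (72.1 to 77.2) and 43.0% (40.2 to 45.9), with intervals that meet those of the gained ones, and windows over kept wide regions 79.7% and 52.4%. TGANTCA was in 7.69% (4.45 to 13.0) against 6.09% of all windows, and TATAAA in 3.21% (1.38 to 7.28) against 9.54%. TATAAA was in 5.39% of windows over H3K27ac, 4.88% over narrow PKM2-KD-only and 6.99% over kept wide regions, each within the interval of the gained ones. The median share of G and C was 65.3% in windows over gained regions, 62.7% in all and 65.0% in those over H3K27ac. These are letter matches and not sites of binding.

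Gained wide regions were on each of the 22 chromosomes, with between 7 on chromosome 21 and 109 on chromosome 1. Per 10 Mb they were most frequent on chromosomes 19 (10.9) and 17 (8.66) and least on chromosomes 18 (1.62), 21 (1.68) and 4 (1.79). Chromosomes 17 and 19 held 6.62% and 5.89% of gained, 4.42% and 3.56% of narrow PKM2-KD-only and 9.32% and 8.94% of kept wide regions. In the outer 2 Mb of chromosomes lay 108 gained regions (9.94%, 8.30 to 11.9), 5.22 points (3.57 to 7.16) more than of narrow PKM2-KD-only regions and 6.28 points fewer than of kept wide ones, a difference of −6.28 (−9.48 to −3.20). These 108 were lower, with a median of 35 fragments against 53 elsewhere. H3K27ac of NC was at 33.3% of them against 62.2% elsewhere, and NONO of NC at 28.7% against 17.9%. Neighbouring gained regions were seldom close, with 12 pairs under 1 kb apart and 77 under 50 kb. Another H3T11ph PKM2-KD region of any width lay within 5 kb of 34.7% (31.9 to 37.6) of gained, 54.0% (50.5 to 57.5) of kept wide and 19.3% (18.9 to 19.8) of narrow PKM2-KD-only regions.

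Gene groups tied to the study were then counted, within 5 kb of an end, where 2.34% of all protein-coding genes had a gained wide region. Of 4 H3T11 kinase genes, PKM had one, described above. Of the reported H3T11ph targets MYC and CCND1, CCND1, the cyclin D1 gene, had one at chr11:69644356-69644579, with a fold of 57.1 and 83 fragments. It lay over an H3K27ac region of fold 12.02 and 987 bp in PKM2-KD, with no H3K27ac region in NC and no NONO region in either list, and 6103 bp from the nearest H3T11ph NC region. Of 9 AP-1 genes, FOSL1 had one, with a fold of 10.9 and 55 fragments and no H3K27ac region in either list. It was not within 1 kb of an end of FOSL1. Its summit lay at −429 bp from the nearest annotated start, that of CCDC85B. An NC region of H3T11ph with 79 fragments lay 1068 bp from this gained region.

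No gained wide region was within 5 kb of 9 histone acetyltransferase genes, of 9 genes that the study lists as lowered by both knockdowns (a list chosen in these cells), of the DBHS genes SFPQ and PSPC1, or of 17 glycolysis genes other than PKM. The same held for 391 olfactory receptor, 74 canonical histone, 63 protocadherin and 29 integrin genes. Of 506 zinc finger genes 15 (2.96%) had one, of 384 solute carrier genes 8 (2.08%), of 93 ribosomal protein genes 3 (3.23%) and of 42 collagen genes 1 (2.38%), shares near that of all genes.

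Among the zinc finger genes, ZNF443 had its summit 1 bp upstream of the start, with a fold of 13.2 and 99 fragments, and ZNF367 and ZNF143 had theirs 144 and 59 bp upstream with 91 and 61 fragments. One region of fold 6.10 lay at both ZNF324 and ZNF446. ZNF443 and ZNF226 had no H3K27ac region in either list, whereas ZNF808 had H3K27ac of fold 7.80 in NC and 19.5 in PKM2-KD. Among ribosomal protein genes, RPL23A, RPL4 and RPL10A each had an NC region of H3T11ph close by, at 10, 133 and 44 bp. At RPL23A that NC region had 110 fragments and the gained one 64, and at RPL10A both had 37.

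Wide regions listed only in NC were compared with the gained ones. In NC 4003 regions reached the width limit, and 2951 of them overlapped no PKM2-KD region, beside 1087 gained. The limit lay higher above the narrowest width of the PKM2-KD list than of the NC list, and with 2 times its own narrowest width the PKM2-KD list gave 1913 gained regions. The counts therefore depended on the limit and do not compare loss with gain. The NC-only ones were low, with a median of 18 fragments and 34.6% under 10, against a median of 52 and 11.6% for the gained ones. These are counts of separate libraries not scaled for depth. A cut of 20 fragments or more in both therefore does not match the libraries for depth. With it, the gained ones had more H3K27ac of PKM2-KD, by 22.3 points (18.3 to 26.2). NONO of NC differed by 0.0431 points (−3.21 to 3.4) and nearness to gene ends by 2.44 points (−0.937 to 5.91), intervals that include 0. NONO of NONO-KD was at 7.01% of the gained and 14.1% of the NC-only ones. That difference was −7.07 points (−9.49 to −4.54), an interval that excludes 0.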

How the data were processed

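CUT&Tag regions from MDA-MB-231 cells were analysed from the peak lists the authors deposited, 1 per library, for 6 libraries in 6 groups taken from the sample titles. The submitters' processing notes name FastQC 0.11.9, cutadapt 1.18, SAMtools 1.3.1, MACS2 2.1.1.20160309 and DESeq2, with build hg38, and give no role, order or control. In the deposited lists the score is −log10 q times 10 cut to a whole number, the ratio column is the fold of the summit height over local background within the library, p-values and q-values are on a −log10 scale, and the last column is the summit offset. The smallest −log10 q was between 1.30 and 1.32.

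The width limit was 222 bp. Regions counted as overlapping when they shared at least 1 bp. The lists hold no read totals, so heights of different libraries were not scaled to a common depth. Heights were recovered as the whole number k for which fold = (k + 1)/(background + 1) and a Poisson tail matched the deposited −log10 p within 0.002, which worked for 99.9% of H3T11ph regions of either list. This recovery and the overlap counts were tested on simulated data. Intervals are 95% Wilson and Newcombe, for counting error only. Gene ends came from RefSeq GRCh38.p14 (19126 protein-coding genes), and start sites from a promoter table that covers 15101 of them. Planned sequence around each summit was replaced by promoter windows, since no genome was used here. Genes named are those of the 10 regions of highest fold within 1 kb of a gene end, the 10 widest there, the 10 of highest fold there with H3K27ac in PKM2-KD and not in NC, genes with 2 or more such regions, and genes of the listed groups within 5 kb. Some genes that the rule names are not reported here. Regions named by fold, width or height alone were chosen after their values were seen. The regions and lists were chosen with earlier results of these data known. Python 3.11.15, numpy 2.4.6, pandas 2.3.3, scipy 1.17.1 and matplotlib 3.10.9 were used.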

Additional observations from a re-analysis of the deposited data

Results flagged for a closer look

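Regions on chromosome X were outside the comparisons above, which used chromosomes 1 to 22. By the same width and the same absence from the NC list, 13 H3T11ph PKM2-KD regions on chromosome X would have been taken, of 21 of that width there. The highest fold among the 13 was 55.7. They stand here because they are a signal in data not used above, no control library bears on them, and nothing about them was tested.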

How the results depend on the processing

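Of 64 values computed under another setting, 37 stayed within the interval of the value above (for the number of regions, within 1.5 times) and 0 changed direction. The settings of 2 times the narrowest PKM2-KD width, of 20 fragments or more for the number and shares, of the summit base and of the outer 2 Mb were chosen after seeing the data. The gained wide regions were 3.04% of the H3T11ph PKM2-KD list, 0.622% of it with a width limit of 3 times the narrowest NC width and 5.36% with 2 times the narrowest PKM2-KD width, and between 2.52% and 3.78% otherwise. At 3 times the narrowest NC width the shares overlapping H3K27ac NC, H3K27ac PKM2-KD, NONO NC and NONO-KD were 62.6%, 74.3%, 26.6% and 13.5%, and 15.3% lay at gene ends. With at least 50% of the region covered the 4 shares were 47.7%, 59.98%, 11.7% and 3.22%, and at the summit base 50.2%, 59.3%, 12.4% and 4.42%. A −log10 q of at least 5 gave 49.4% and 63.4% for the H3K27ac lists, 2 times the narrowest PKM2-KD width gave 62.9% for H3K27ac PKM2-KD, and 20 fragments or more gave 63.5% for H3K27ac NC and 22.4% at gene ends. A window of 2.5 kb gave 24.1% at gene ends, as a larger window must. At the summit base the differences from kept wide regions were −21.4 points for NONO NC and −21.3 for NONO-KD, and from narrow PKM2-KD-only regions 35.7, 42.7, 9.19 and 3.51 points for H3K27ac NC, H3K27ac PKM2-KD, NONO NC and NONO-KD. A stricter overlap lowers a share by construction. Otherwise the cause was not tested. No paired analysis was possible because every group held 1 library and the labels carry no replicate numbers. Regions of 1 library are not replicates, and a region just under the threshold in NC counts as gained.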
